A study of Homo sapiens with 6 samples.

Results

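The interferon response genes were 43 genes chosen by name, as receptors for interferons, the transcription factors that act under them and genes that interferon is known to induce. A gene was measured where a probe set, the group of short probes that reads 1 transcript on the array, was annotated with that gene alone. This held for 42 of the 43 genes, out of 19775 genes measured in all, while STAT2 was not analysed here. Where a gene had several such probe sets, the one with the highest mean signal over the arrays represented it. The 42 genes were read by 73 probe sets, with 1 each for 20 genes and several for 22.

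The cells were IKPRAB-36, an Ishikawa endometrial cancer line and a single stably transfected clone that expresses both progesterone receptor isoforms, PRA and PRB. All cells grew in medium with charcoal-stripped serum, hygromycin and neomycin. The 3 control arrays came from cells kept for 48 h without hormone (0 nM), and the 3 MPA arrays from cells kept for 48 h with 1 nM of the synthetic progestin medroxyprogesterone acetate (MPA). Neither the labels nor the methods say that the arrays of a group were separate cultures. The p-values then measure only the spread between arrays, which may be technical. Values are RMA signals on the log2 scale, where a difference of 1 is a 2-fold change.

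Interferons are secreted proteins that warn cells of infection. Type I interferons bind IFNAR1 and IFNAR2, interferon gamma binds IFNGR1 and IFNGR2, and type III interferons use IL10RB with a chain of their own. The kinases JAK1, JAK2 and TYK2 sit on these receptors and activate STAT proteins. STAT2 and IRF9 form part of the complex that binds the interferon-stimulated response element (ISRE), while interferon gamma acts mainly through the gamma-activated sequence (GAS). Many of the induced genes also show a basal level in epithelial cells that have not met interferon.

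It was observed that 4 of the 42 genes passed the test, which asked for an adjusted p under 0.05 and a log2 change of at least 0.32 in either direction. The ligand-binding chain of the interferon gamma receptor, IFNGR1, was 2.27-fold higher with MPA. The antiviral RNA-binding protein IFIT1 was 1.65-fold lower, the ISG15 ligase HERC5 1.98-fold lower and the induced gene IFI44L 2.12-fold lower. Thus 1 of 42 members (2.38%) was up-regulated, where 1.74% of all genes were, and 3 of 42 (7.14%) were down-regulated, where 1.16% of all genes were. The members were chosen with earlier results of these data known, so that these shares and those below are descriptions. The median log2 change of the members was -0.01 against 0.02 for all genes, and 22 of the 42 values were below 0 (52.4% against 44.7%). With arrays scaled on housekeeping genes 33 of the 42 were below 0 (78.6% against 62.6%) and without MPA 3 these were 30 (71.4% against 56.5%), so that the split of signs moves with the scaling and with that array. Of the 22 members above the array median on at least 1 array, 16 were below 0 in the main fit (72.7% against 45.9% of such genes). Their median was -0.18 against 0.02, with 1 called higher (4.55% against 2.45%) and 3 lower (13.6% against 1.65%). IFI44L is among these 22 through control 2 alone. Of the 20 members under the array median on all 6 arrays, 6 were below 0. Values on each array follow for the members that any setting called, for the one with the brightest probe set in each role group and for IRF1. A brighter probe set does not show a higher level of the transcript, since probe sets bind with unequal strength.

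The upstream sequences of the 3 down-regulated genes are shown because all of them hold the letters of the ISRE. That motif was searched on both strands as GAAA, any 2 bases, GAAA, which reads TTTC, any 2 bases, TTTC on the other strand. Each line gives the 250 bases before the annotated start, 5′ to 3′ on the strand of the gene, from RefSeq on GRCh38.p14, with the motif in capitals. IFIT3 and IFIT5 are shown as relatives of IFIT1 that did not pass the test, and IFNGR1 as the up-regulated gene. IFIT3 and IFNGR1 have 2 annotated starts each, and the more upstream one was taken.
IFIT1: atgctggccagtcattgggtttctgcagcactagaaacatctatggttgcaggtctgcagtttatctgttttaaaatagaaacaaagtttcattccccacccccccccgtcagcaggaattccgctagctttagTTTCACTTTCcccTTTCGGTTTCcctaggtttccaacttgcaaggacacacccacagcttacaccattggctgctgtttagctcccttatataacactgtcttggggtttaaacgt
HERC5: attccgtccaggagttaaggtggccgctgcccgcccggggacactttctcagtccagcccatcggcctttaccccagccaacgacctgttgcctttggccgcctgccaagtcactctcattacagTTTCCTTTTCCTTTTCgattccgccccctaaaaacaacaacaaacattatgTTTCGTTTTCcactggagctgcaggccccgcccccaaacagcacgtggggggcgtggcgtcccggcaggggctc
IFI44L: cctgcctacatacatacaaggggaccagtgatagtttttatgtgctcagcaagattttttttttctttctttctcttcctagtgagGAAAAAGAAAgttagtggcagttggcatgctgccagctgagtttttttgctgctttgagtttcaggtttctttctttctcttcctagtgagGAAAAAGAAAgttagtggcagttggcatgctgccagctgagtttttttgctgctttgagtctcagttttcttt
IFIT3: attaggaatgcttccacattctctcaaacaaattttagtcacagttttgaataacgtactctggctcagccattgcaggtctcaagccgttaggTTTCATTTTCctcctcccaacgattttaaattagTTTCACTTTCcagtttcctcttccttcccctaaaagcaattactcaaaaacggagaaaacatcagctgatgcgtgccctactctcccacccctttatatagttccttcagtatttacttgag
IFIT5: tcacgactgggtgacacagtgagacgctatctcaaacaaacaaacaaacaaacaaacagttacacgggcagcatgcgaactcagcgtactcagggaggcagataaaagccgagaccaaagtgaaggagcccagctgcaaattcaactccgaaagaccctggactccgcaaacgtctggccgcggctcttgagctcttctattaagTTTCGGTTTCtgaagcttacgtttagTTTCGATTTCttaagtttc
IFNGR1: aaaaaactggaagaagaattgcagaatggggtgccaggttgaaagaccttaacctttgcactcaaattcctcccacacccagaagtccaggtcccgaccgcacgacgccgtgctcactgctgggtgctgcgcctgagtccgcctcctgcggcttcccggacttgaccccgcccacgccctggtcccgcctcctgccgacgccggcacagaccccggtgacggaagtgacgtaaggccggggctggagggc
The stretches lie at chr10:89392373-89392622 on the + strand for IFIT1, chr4:88456869-88457118 on the + strand for HERC5 and chr1:78620198-78620447 on the + strand for IFI44L. IFIT3 lies at chr10:89327747-89327996 and IFIT5 at chr10:89414318-89414567, both on the + strand, and IFNGR1 at chr6:137219386-137219635 on the - strand.

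The IFIT1 stretch held 2 copies of the motif, HERC5 held 3, of which the first 2 share bases, and IFI44L held 2. In IFI44L the copies lie in a repeat, since an identical run of 85 bases occurs at both places. IFIT3 and IFIT5 also held 2 copies each in the stretch shown, and IFNGR1 held 0. A match of letters is a description and does not show that a factor binds there.

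Of the 42 measured members, 32 had a promoter window in RefSeq (250 bases before to 50 after a start), and 21 of these (65.6%) held the ISRE letters in at least 1 window. Among all 27305 genes with a window the share was 4.38%, and among all 35116 windows 3.57%. The letters were present in 3 of the 3 down-regulated members and in 18 of the 28 members with a window that did not pass the test. Having the motif therefore did not separate the genes that fell from those that did not. The GAS letters, TTCNNNGAA, which read the same on both strands, occurred in 10 of the 32 members (31.2%) against 9.38% of all genes, and in 0 of the 3 down-regulated members. A GAS match can share bases with an ISRE match, as in BST2.

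**Figure D1:**
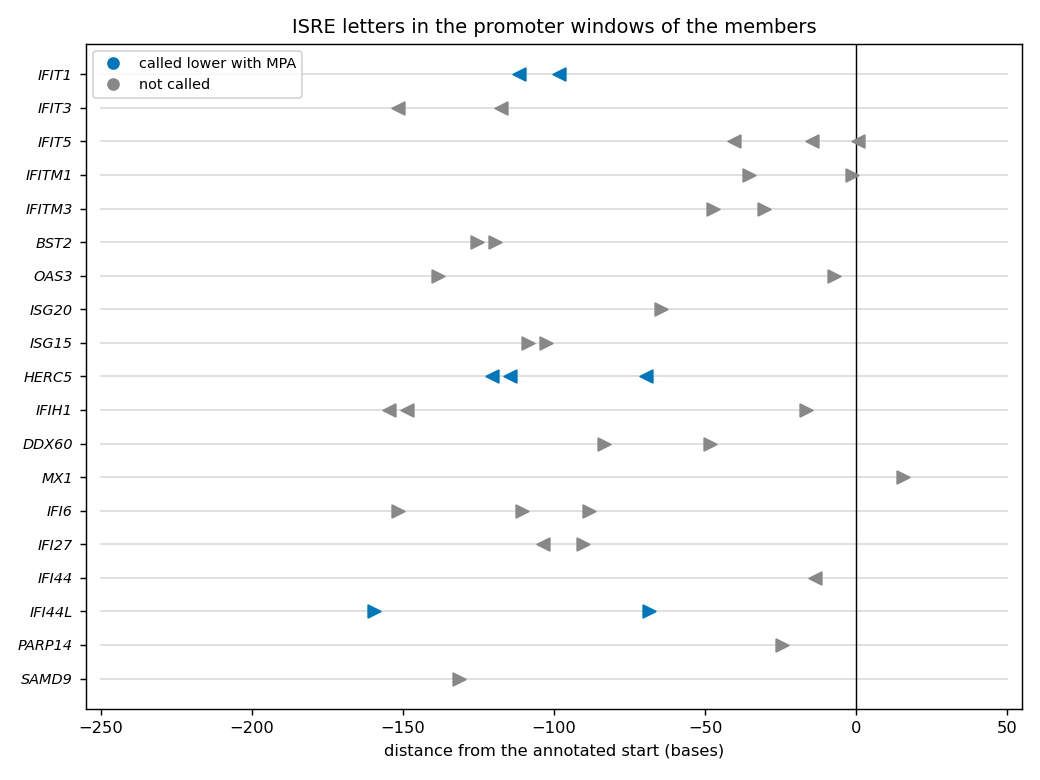
Position of the ISRE letters in the most upstream promoter window of each member that holds them there (19 genes, 37 matches). The x axis is the distance from the annotated start in bases, a triangle points right where the motif reads GAAA first on the strand of the gene and left where it reads TTTC first, and colour gives the call. The matches of IFIT1, HERC5 and IFI44L (blue) lie among those of genes that were not called, with the first base of all matches between -164 and 11.

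Among the receptors, IFNGR1 was the gene that rose. Its brightest probe set read 8.13, 8.70 and 8.28 on control arrays 1 to 3 and 9.42, 9.72 and 9.52 on MPA arrays 1 to 3. Every MPA array was therefore above every control array, and the lowest MPA value exceeded the highest control value. The log2 change was 1.18 (SE 0.16, 95% interval 0.81 to 1.55, limma adjusted p = 0.00738). Control 2 was the highest control array in this gene, and without control 3 the adjusted p was 0.0537.

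A second IFNGR1 probe set gave the same direction. It read 6.70, 7.67 and 7.10 in controls and 8.41, 8.70 and 8.48 with MPA, a log2 change of 1.37 (SE 0.22, adjusted p = 0.0177). It was no longer called without control 3, MPA 1 or MPA 2 (adjusted p of 0.1, 0.0741 and 0.0692). Another IFNGR1 probe set had a signal near 3.4 in both groups, under the median of every array, and a log2 change of 0.02. Both called IFNGR1 probe sets may bind several transcripts of the gene, as their type in the array design allows.

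The signalling partner IFNGR2 had the brightest probe set of the receptors and read 10.11, 9.90 and 10.11 in controls and 9.92 and 10.25 on MPA 1 and MPA 3, with MPA 2 between them. The groups overlapped, and the log2 change was 0.02 with a 95% interval of -0.27 to 0.30. The type I chain IFNAR1 read 7.10, 7.77 and 7.18 in controls and 7.82, 7.86 and 7.83 with MPA. All MPA values lay above all control values, but control 2 came close to them, and the log2 change of 0.49 (SE 0.17) did not pass (adjusted p = 0.326). Without control 2 it was 0.70 with an adjusted p of 0.0216, so that this array decides the call.

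Of the other 3 probe sets of IFNAR1, 2 also had every MPA array above every control array, with log2 changes of 0.46 and 0.14, and the remaining one gave -0.09. The mean of all 4 was 0.25 (adjusted p = 0.376). IFNAR2, the other type I chain, had a log2 change of 0.04 (95% interval -0.18 to 0.26) in its brightest probe set. That probe set is of a type that may bind related sequences. The other probe sets of IFNAR2 gave -0.25 (95% interval -0.59 to 0.08) and 0.02. Between the brightest probe sets of the members, 2 had all MPA arrays above all control arrays, IFNAR1 and IFNGR1, which is 4.76% of the members against a background of 8.96% of genes. In the other direction 7 members, IRF1, IFIT1, OASL, HERC5, HERC6, DDX58 and IFI44L, had all MPA arrays below all control arrays, 16.7% against 7.98% of genes.

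**Figure D2:**
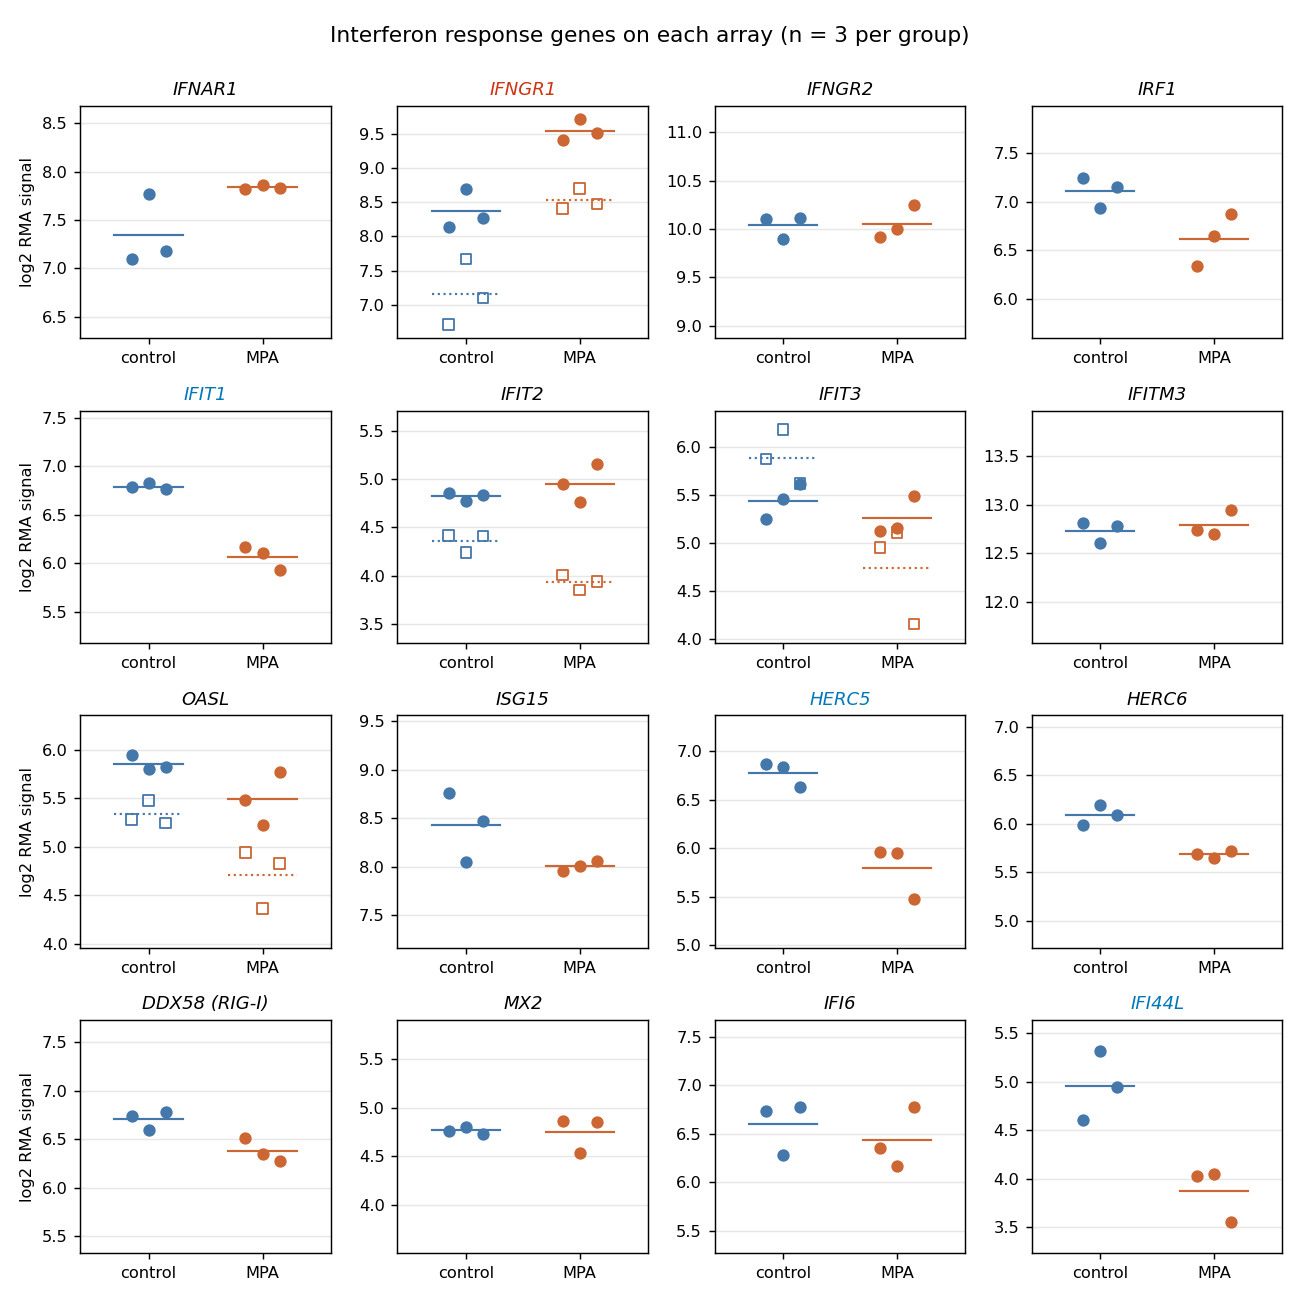
Log2 RMA signal on each array for 16 members, with control arrays in blue and MPA arrays in orange (3 each), and lines at the group means. Filled circles are the brightest probe set, open squares with dotted lines a second probe set, red and blue gene names mark calls by the brightest probe set, and each panel has its own axis. By the brightest probe set the groups are apart in the called genes IFNGR1, IFIT1, HERC5 and IFI44L. They are also apart in IFNAR1, IRF1, OASL, HERC6 and DDX58, which were not called. In IFIT2 and IFIT3 the 2 probe sets differ.

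Of the transcription factors, none was called. IRF1, an activator that responds quickly to interferon gamma, read 7.25, 6.93 and 7.16 in controls and 6.34, 6.65 and 6.87 with MPA. The MPA arrays were all lower, MPA 3 coming close to control 2. The log2 change was -0.49 (SE 0.16), which did not pass (adjusted p = 0.245). Its other probe set gave -0.42 (adjusted p = 0.259), also with every MPA array below every control array.

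IRF9, the DNA-binding partner of STAT2, had the brightest probe set of the transcription factors by the mean of all arrays. It read 6.86, 6.84 and 6.97 in controls and 6.85, 6.79 and 7.01 with MPA, which overlap. Its log2 change was -0.01 (95% interval -0.25 to 0.24). IRF7, which drives the type I interferon genes, had 0.21 (-0.07 to 0.50), and IRF2, an antagonist of IRF1, had -0.03. IRF2 and IRF7 were under the median of the array on all 6 arrays, so that their values say little about change.

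The IFIT proteins bind foreign RNA and block its translation. IFIT1, the brightest of them, read 6.78, 6.82 and 6.76 in controls and 6.17, 6.11 and 5.93 with MPA. The control arrays lay close together, and all MPA arrays were lower. The log2 change was -0.72 (SE 0.11, 95% interval -0.97 to -0.48, adjusted p = 0.0111). The call was lost without control 1 (adjusted p = 0.058) and without control 3 (0.0721), at changes of -0.73 and -0.74.

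IFIT3 gave 2 answers. The brightest probe set read 5.25, 5.46 and 5.62 in controls and 5.12, 5.15 and 5.49 with MPA, which overlap, and its log2 change was -0.19 (adjusted p = 0.794). The other read 5.88, 6.18 and 5.62 in controls and 4.95, 5.11 and 4.15 with MPA, with all MPA arrays lower and MPA 3 the lowest. In controls this other probe set was the brighter (mean 5.89 against 5.44), and with MPA it was the dimmer (4.74 against 5.26). The choice by the mean of all arrays therefore took the probe set that changed less.

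That second probe set had a log2 change of -1.16 (SE 0.25) and missed the threshold (adjusted p = 0.0682). It was called by SAM, the permutation-based test that the paper's methods name, and by limma with an intensity trend (adjusted p = 0.047). It was also called with arrays scaled on housekeeping genes (9.25e-07). Under that scaling the adjusted p of the genes named here followed the size of the change alone. Such a p does not reflect the probe set's own spread between arrays, and the call acts as a minimum size of change. The mean of both probe sets had a log2 change of -0.67 and was called (adjusted p = 0.0165).

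IFIT2 behaved alike. Its brightest probe set read 4.86, 4.78 and 4.84 in controls and 4.94, 4.76 and 5.16 with MPA (log2 change 0.13, adjusted p = 0.858). The other read 4.41, 4.24 and 4.41 in controls and 4.01, 3.85 and 3.94 with MPA. Here the groups were apart, with a log2 change of -0.42 (SE 0.11) that SAM called and limma did not (adjusted p = 0.12). Both IFIT2 probe sets were under the array median on all 6 arrays. IFIT5 had log2 changes of 0.02 and 0.36 in its 2 probe sets.

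By the brightest probe set, SAM called 1 member higher, against 3.10% of all genes, and 4 members lower, against 2.13% of all genes. The member that SAM added was HERC6. Over all 73 probe sets of the members, limma called 2 higher and 3 lower, against 1.21% and 0.813% of all probe sets, and SAM 2 higher and 7 lower, against 2.40% and 1.59%.

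**Figure D3:**
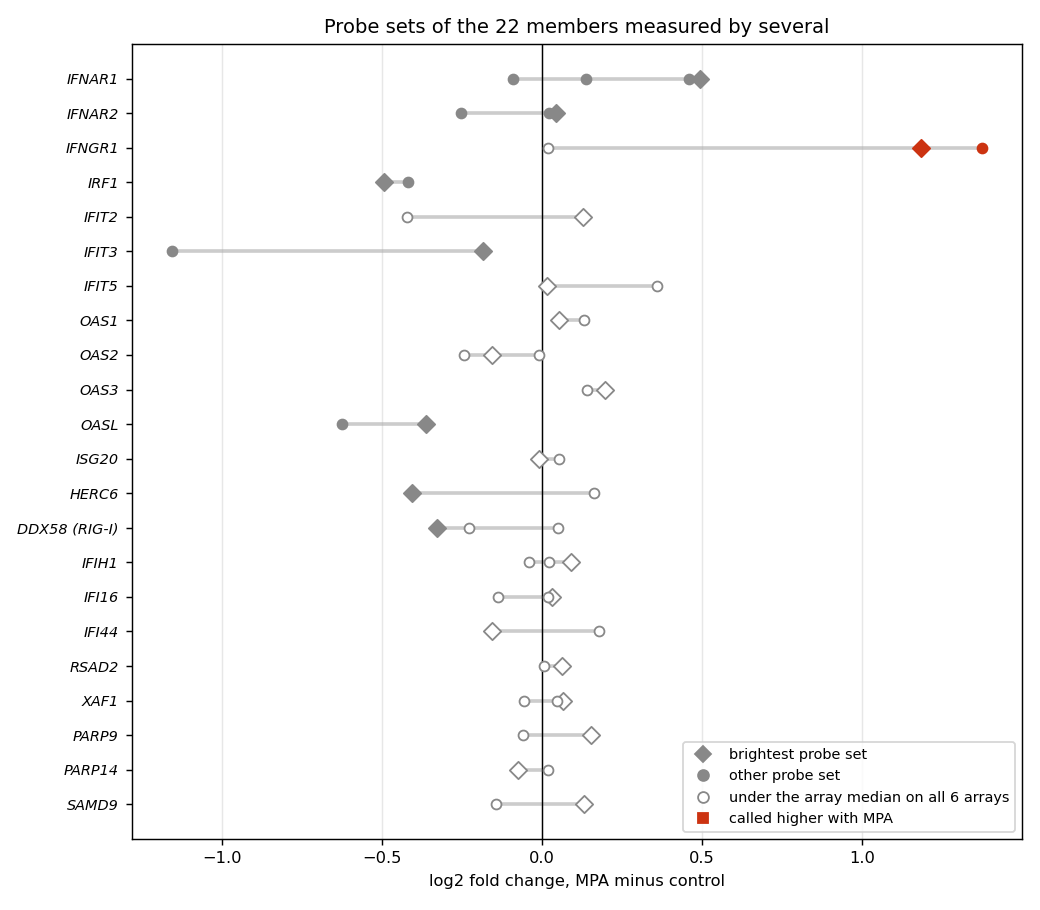
Log2 change with MPA for each probe set of the 22 members read by several. Diamonds are the brightest probe set, circles the others, open symbols lie under the median of the array on all 6 arrays, and red marks a call. The probe sets of IFIT3 lie at -0.19 and -1.16, those of IRF1 at -0.49 and -0.42, and the dim probe set of IFNGR1 at 0.02, away from the called pair at 1.18 and 1.37.

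The IFITM proteins block virus entry at membranes, and tetherin (BST2) holds budding virus at the cell surface. IFITM3, the brightest, read 12.81, 12.60 and 12.78 in controls and 12.74, 12.69 and 12.94 with MPA. The groups overlapped, and the log2 change of 0.06 had a 95% interval of -0.20 to 0.33. IFITM2 had 0.04, IFITM1 -0.19 (-0.62 to 0.24) and BST2 -0.22 (-0.57 to 0.13). The probe sets of IFITM2 and IFITM3 are of a type that may bind related sequences, so that the near-identical IFITM transcripts may not be told apart.

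OAS proteins sense double-stranded RNA and switch on RNA decay, OASL is a relative without that enzyme activity, and ISG20 is an exonuclease. OASL, the brightest, read 5.95, 5.80 and 5.82 in controls and 5.49, 5.22 and 5.77 with MPA, so that MPA 3 nearly reached control 2. The log2 change of -0.36 (SE 0.15) did not pass (adjusted p = 0.432). Its other probe set read 5.28, 5.48 and 5.25 in controls and 4.94, 4.36 and 4.83 with MPA.

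In that probe set all MPA arrays were lower, with a log2 change of -0.63 (SE 0.16, adjusted p = 0.135). SAM called it, and so did limma with arrays scaled on housekeeping genes (0.0395), where the adjusted p followed the size of the change alone. OAS1, OAS2, OAS3 and ISG20 lay under the array median on all 6 arrays, with log2 changes of 0.05, -0.16, 0.20 and -0.01.

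ISG15 is a ubiquitin-like protein that HERC5 attaches to other proteins and USP18 removes. Of the 4 genes of this system, HERC5 passed the test. HERC5 read 6.87, 6.84 and 6.63 in controls and 5.96, 5.95 and 5.48 with MPA. The groups were apart by more than their own spread, and MPA 3 was the lowest array. The log2 change was -0.98 (SE 0.15, 95% interval -1.33 to -0.63, adjusted p = 0.0144). Without control 1 or control 3 the adjusted p was 0.0832 or 0.0507, at changes of -0.94 and -1.06.

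The related ligase HERC6 read 5.98, 6.19 and 6.09 in controls and 5.68, 5.64 and 5.72 with MPA. The groups did not overlap, but the log2 change of -0.41 (SE 0.10) did not pass in limma (adjusted p = 0.126), while SAM called it. Its other probe set, with a signal near 3.2, gave 0.16, and the mean of both was -0.12 (adjusted p = 0.804). ISG15 itself, the brightest of the 4, read 8.76, 8.05 and 8.47 in controls and 7.96, 8.01 and 8.06 with MPA. Here MPA 3 was slightly above control 2, and the log2 change of -0.42 (SE 0.17) did not pass (adjusted p = 0.433). USP18 had 0.00 with a 95% interval of -0.28 to 0.27.

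RIG-I (DDX58) and MDA5 (IFIH1) detect viral RNA, DDX60 assists RIG-I and IFI16 binds DNA. DDX58 read 6.75, 6.60 and 6.78 in controls and 6.51, 6.35 and 6.28 with MPA. All MPA arrays were lower, and the log2 change of -0.33 (SE 0.11) did not pass (adjusted p = 0.297). This probe set is of the type that may bind related sequences, and the other 2 of DDX58 gave -0.23 and 0.05. IFIH1, DDX60 and IFI16 were under the array median on all 6 arrays, with log2 changes of 0.09, 0.02 and 0.03.

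The MX GTPases trap viral nucleocapsids. MX2, the brighter, read 4.76, 4.80 and 4.73 in controls and 4.87, 4.54 and 4.85 with MPA, which overlap, and its log2 change was -0.01. MX1, often used as a marker of type I interferon activity, had 0.12 (95% interval -0.21 to 0.44). Both were under the array median on all 6 arrays.

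Of the other 11 induced genes, IFI44L fell. It read 4.61, 5.32 and 4.95 in controls and 4.03, 4.05 and 3.55 with MPA. All MPA arrays were lower, and 5 of the 6 values were under the array median, control 2 being the exception. The log2 change was -1.08 (SE 0.20, 95% interval -1.55 to -0.62, adjusted p = 0.0344). This was the least stable of the 4 calls: it was lost without each array but control 1, at adjusted p-values up to 0.153 (without control 3). It was also left out by a filter on dim probe sets.

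Its neighbour in name, IFI44, had a log2 change of -0.16 (95% interval -0.46 to 0.15). IFI6, a mitochondrial protein and the brightest of this group, read 6.73, 6.28 and 6.78 in controls and 6.35, 6.16 and 6.77 with MPA. The groups overlapped, with a log2 change of -0.17. The other 8 genes, among them IFI27, the viperin gene RSAD2, XAF1 and PARP9, had changes between -0.10 and 0.15.

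Of the 42 members, 20 were under the median of the array on all 6 arrays, with group means between 2.53 and 4.96. This was 47.6% of the members against 31.4% of all genes. In 31 of the 42 members (73.8%) the 95% interval of the change lay within 1.5-fold in either direction, against 78.6% of all genes, so that a larger change of the measured signal was not seen there. The 31 comprised all 20 dim members and 11 of the other 22. The latter is 50% of the 22, against 72.2% of genes above the median on at least 1 array. At low signal an array understates a change, and a small change is then not detectable.

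**Figure D4:**
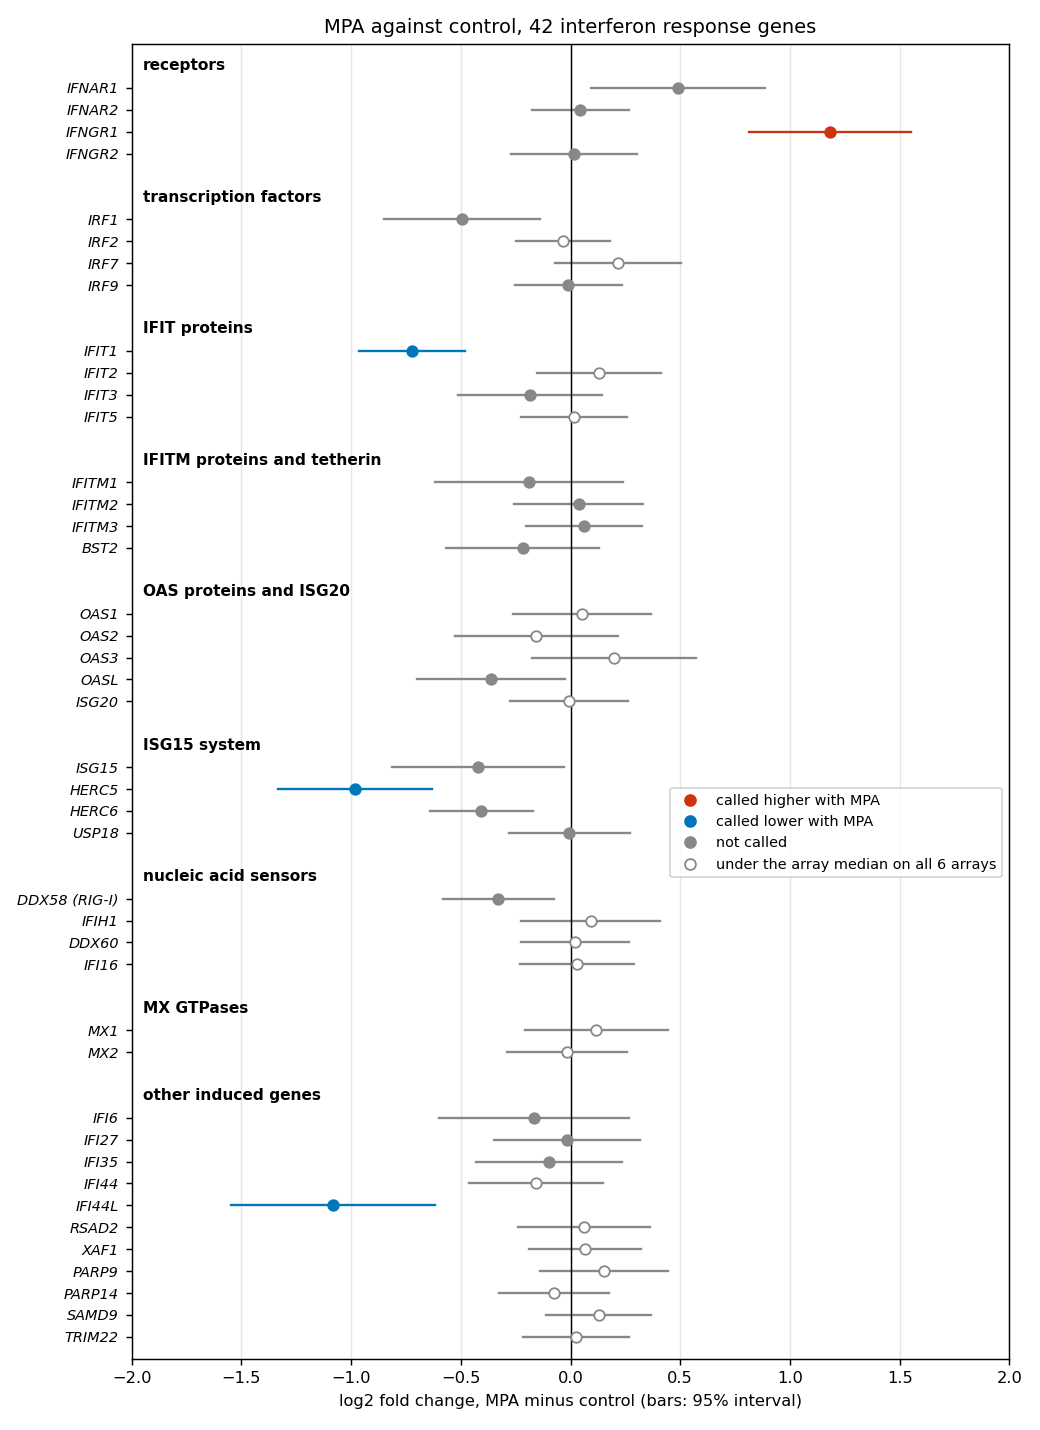
Log2 change with MPA for the 42 members, by role, each by its brightest probe set (3 arrays per group). Points are the limma estimate and bars its 95% interval, red and blue mark calls, and open points lie under the median of the array on all 6 arrays. IFNGR1 at 1.18 stands to the right, and IFIT1 at -0.72, HERC5 at -0.98 and IFI44L at -1.08 to the left, while most intervals cross 0.

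Of 100 further genes in 7 lists of the pathway, 92 were measured. Of these limma called 1 higher (1.09%, against 1.74% of all genes) and 3 lower (3.26%, against 1.16%). The lists were chosen with earlier results of these data known, so that such shares are descriptions, and no list was tested. No interferon gene was called among 18 measured, of which 17 were under the array median on all 6 arrays. Their changes lay between -0.25 and 0.22.

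Around the receptors, IL10RB was called higher. It read 7.51, 7.03 and 7.34 in controls and 8.23, 8.03 and 7.90 with MPA. All MPA arrays were above all control arrays, with a log2 change of 0.76 (SE 0.15, adjusted p = 0.042), but leaving out any array except MPA 3 ended the call (adjusted p of 0.0634 to 0.201), and so did a second quantile normalization (0.0682).

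JAK1, the kinase shared by all 3 receptor types, read 5.83, 6.51 and 5.98 in controls and 6.78, 7.26 and 6.59 with MPA in its brightest probe set. The log2 change of 0.77 (SE 0.22) did not pass (adjusted p = 0.187). A dimmer JAK1 probe set read 4.29, 4.61 and 4.52 in controls and 5.15, 5.22 and 5.28 with MPA, and was called at 0.74 (SE 0.12, adjusted p = 0.0153). In both probe sets all MPA arrays were above all control arrays. The brightest was called by SAM and with arrays scaled on housekeeping genes (0.0376), where the dimmer was not (0.0556). Under that scaling the adjusted p followed the size of the change alone (0.70 against 0.67), not the spread of each probe set. The dimmer was also lost without control 1, control 3, MPA 1 or MPA 2 (0.0576 to 0.085). The other 3 JAK1 probe sets overlapped between the groups, were not called and gave 0.34, 0.34 and 0.13, and the mean of all 5 was 0.47 (adjusted p = 0.0556). The other kinases JAK2 and TYK2 had 0.20 and -0.06.

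Of the 11 feedback regulators none was called by its brightest probe set. SOCS1, which blocks JAK kinases, had a log2 change of -0.04 there, while another of its probe sets read 6.03, 5.71 and 6.09 in controls and 4.45, 4.62 and 4.88 with MPA. That probe set was called lower at -1.29 (SE 0.15, adjusted p = 0.00308). It stayed called without each single array (adjusted p of 0.00316 to 0.0255). In controls it was brighter than the probe set chosen by the mean of all arrays (5.94 against 5.79). The remaining 2 gave -0.47 and 0.14, so that the SOCS1 probe sets disagree. The one at 0.14 was under the array median on all 6 arrays. The mean of all SOCS1 probe sets was -0.42 and was not called (adjusted p = 0.208).

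None of 12 genes of the interferon induction pathway was called. Of 5 measured genes among other IRFs and IRF2 binding proteins, the corepressor IRF2BP2 was called in 2 probe sets, which fell by 0.77 (adjusted p = 0.048) and by 0.69 (adjusted p = 0.0227) on the log2 scale. Without any array except control 2 neither was called (adjusted p of 0.0503 to 0.234), and the brighter missed the threshold after a second quantile normalization (0.0505). The other 4 IRF2BP2 probe sets were not called by limma and gave -0.66 (adjusted p = 0.0519), -0.42, -0.05 and 0.06, of which SAM called the first. The mean of all probe sets of the gene was not called (-0.42, adjusted p = 0.0573). Of 26 further interferon-induced genes, LGALS3BP, a secreted glycoprotein, was called lower. It read 8.36, 7.78 and 8.08 in controls and 6.92, 6.33 and 7.06 with MPA, a log2 change of -1.31 (SE 0.21, adjusted p = 0.0181). Its call was lost without control 1, control 3 or MPA 1 (0.089, 0.0967 and 0.0693).

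In that list 21 of the 26 values were below 0, with a median of -0.09, against 44.7% of all genes and a median of 0.02. With arrays scaled on housekeeping genes these were 22 of 26, against 62.6% of all genes, and without MPA 3 they were 18 of 26 (69.2%), against 56.5% of all genes. Of 14 genes induced by interferon gamma, SECTM1 was called lower at -0.81 (SE 0.16, adjusted p = 0.0405), and the median was 0.01. Without any array except MPA 3, SECTM1 was no longer called (adjusted p of 0.0926 to 0.199).

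**Figure D5:**
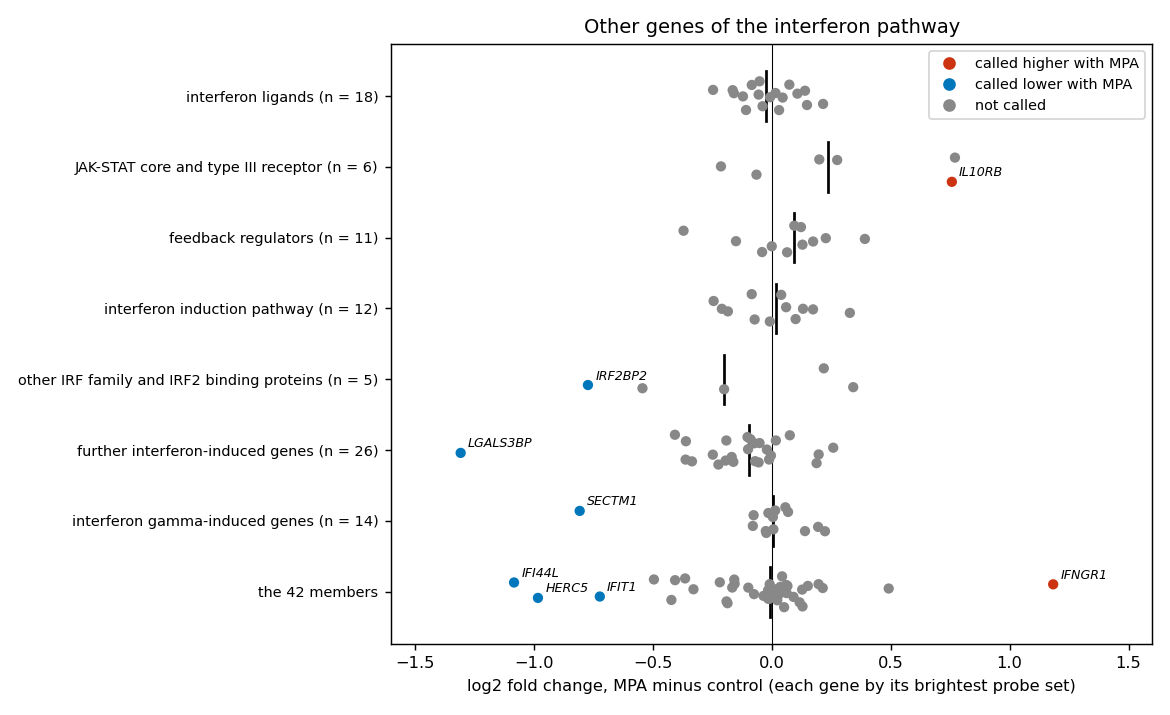
Log2 change with MPA for the genes of 7 lists of the interferon pathway and for the 42 members, each gene by its brightest probe set, with the median of a list as a black line. Red and blue points are calls and are named, and the height of a point within its row has no meaning. LGALS3BP at -1.31 is the lowest gene and IFNGR1 at 1.18 the highest.

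Over all 54613 probe sets tested, 663 were higher and 444 lower (59.9% higher), and scaling by housekeeping genes gave 669 and 691 (49.2% higher). Array medians lay between 5.16 and 5.28, and MPA 3 stood apart in its poly-A controls (6.60 against 8.09 to 8.90). The members deviated from their own means by a median of 0.13 on MPA 3 (all genes 0.09) and of -0.13 on MPA 2 (all genes -0.06), and lay between -0.04 and 0.04 on the other arrays. Epithelial markers averaged 9.62 to 9.80 on control arrays and 9.46 to 9.77 on MPA arrays, and limma called none of the 7. SAM called EPCAM (-0.54, adjusted p in limma 0.0586) and CDH1 (-0.76, 0.128) lower, each with all MPA arrays below all control arrays. The 6 fibroblast markers averaged 6.25 to 6.51 and 6.10 to 6.29. Of these limma called none, and SAM called the collagens COL1A1 (-0.81, 0.168) and COL3A1 (-0.53, 0.0918) lower. The part of these differences in the members' values was not tested. The 4 endothelial markers averaged 4.65 to 4.75 and 4.49 to 4.85, with 3 of them under the array median on all 6 arrays and none called. Of 3 genes typical of the cell line, PAX8 was called lower by SAM only (-0.44, 0.0762), and PGR, the progesterone receptor, had 0.48 and was not called (0.294). The 6 leukocyte markers measured averaged 4.25 to 4.27 and 4.17 to 4.44, with 5 of them, PTPRC among them, under the array median on all 6 arrays. All arrays came from a single clone in culture, so that these markers give signal levels of that line and do not count cells of other types. Precision is limited by the 6 arrays: with 3 in each group, the smallest p of an exact permutation test is 0.1.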

How the data were processed

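RNA of IKPRAB-36 cells was hybridized to Affymetrix U133 Plus arrays, 3 control and 3 MPA. The authors deposited log2 values made with RMA, which covers background, normalization between arrays and summarization of probes, and these steps were not run again. The sources used here do not give the software version. Of 54675 probe sets, 62 Affymetrix controls were removed.

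Limma 3.58.1 in R 4.3.3 (lmFit, eBayes) gave two-sided p-values, adjusted by Benjamini-Hochberg over the 54613 others. Calls were made at an adjusted p under 0.05 with a log2 change of at least 0.32, which corresponds to the minimal fold that the study's methods set. SAM was re-implemented, with delta 0.53 and 20 relabelings. Probe sets took current gene symbols by Entrez identifier from GEO's annotation, where 41091 had 1 symbol, 1801 several and 11721 none. Every member was described, with values on each array for those called in any setting, for the brightest of each role group and for IRF1. Members and lists were chosen with earlier results of these data known. Also tried were SAM, a replicate block, a trend of variance with intensity, no fold minimum, only probe sets with a mean above 5.20, quantile normalization again, scaling by 9 of 12 housekeeping genes, averaging all probe sets of a gene, and leaving out each array. The fit was tested on simulated data.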

Additional observations from a re-analysis of the deposited data

How the results depend on the processing

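The number of members called was 1 higher and 3 lower with a replicate block, an intensity trend, no fold minimum, a second quantile normalization and scaling by housekeeping genes. SAM and the mean of all probe sets called 4 lower, and the filter on dim probe sets, which left 20 members, called 2. With single arrays left out, members called higher ranged from 0 (without control 3) to 2 (without control 2), and members called lower from 0 (without control 3) to 2, with 1 without control 1. Of all probe sets, limma called 663 higher and 444 lower. The counts became 1208 and 825 with the replicate block and 1313 and 868 with SAM, scaling by housekeeping genes gave 691 lower, and single arrays left out gave 353 to 725 higher and 156 to 465 lower. Under scaling by housekeeping genes the adjusted p of the genes named here followed the size of the change alone. Calls under that scaling therefore do not weigh the spread of each probe set. The causes of the shifts in these counts were not tested.

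The labels number the replicates but do not say whether same-numbered arrays were paired. The deviations of same-numbered arrays correlated at -0.02, 0.52 and 0.33. The value of control 2 with MPA 2 was the highest of all pairs, while control 1 correlated best with MPA 3 (0.35). Whether the arrays were paired cannot be told from these values, and the main fit treats them as unpaired. With the block, the members called by their brightest probe set stayed at 1 higher and 3 lower. The block also called the second probe set of IFIT3 lower (-1.16, adjusted p = 0.000469) and the brightest of JAK1 higher (0.77, 0.00376).

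Of 566 values of members over the 14 alternatives, 498 kept their sign and their side of the threshold, 10 lost a call, 3 gained one and 55 changed sign. The values that changed sign belonged to 22 members, none of them called by limma with all arrays, and their size was at most 0.15 on the log2 scale. With the mean of all probe sets these were IFNAR2 (-0.063), IFIT2 (-0.15), ISG20 (0.022), IFI16 (-0.030), IFI44 (0.010), SAMD9 (-0.0074). With scaling by housekeeping genes they were IFNAR2 (-0.027), IFNGR2 (-0.053), IFIT5 (-0.054), IFITM2 (-0.034), IFITM3 (-0.0072), OAS1 (-0.018), DDX60 (-0.050), IFI16 (-0.040), RSAD2 (-0.0087), XAF1 (-0.0040), TRIM22 (-0.047). With a second quantile normalization they were IFNGR2 (-0.0076), IFIT5 (-0.0027). With single arrays left out, the ranges of the genes that changed sign were IFNGR2 -0.078 to 0.088, IRF9 -0.074 to 0.038, IFIT5 -0.018 to 0.081, IFITM2 -0.080 to 0.12, IFITM3 -0.011 to 0.11, OAS1 -0.022 to 0.17, OAS2 -0.27 to 0.028, ISG20 -0.11 to 0.055, USP18 -0.10 to 0.057, IFIH1 -0.053 to 0.19, DDX60 -0.036 to 0.060, IFI16 -0.047 to 0.072, MX2 -0.071 to 0.093, IFI27 -0.15 to 0.071, IFI35 -0.25 to 0.0061, RSAD2 -0.033 to 0.16, TRIM22 -0.040 to 0.072, TYK2 -0.19 to 0.032. The direction of these genes, TYK2 among them, is therefore not settled.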
